A study of Mus musculus with 13 samples.

Results

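The 39 genes of the Hoxa, Hoxb, Hoxc and Hoxd clusters were followed in mouse embryonic fibroblasts (MEFs) in which the histone H3 lysine 9 methyltransferase Setdb1 was depleted, with and without 5-azacytidine (5-aza), a drug that blocks the maintenance of DNA methylation. The members are every row of the expression table whose gene name is Hoxa, Hoxb, Hoxc or Hoxd followed only by digits, 39 of 25965 rows. There are 11 in Hoxa on chromosome 6, 10 in Hoxb on chromosome 11, 9 in Hoxc on chromosome 15 and 9 in Hoxd on chromosome 2. By the number in their names they are grouped here as anterior (numbers 1 to 3, 8 genes), central (4 to 8, 15 genes) and posterior (9 to 13, 16 genes).

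Primary MEFs came from mid-gestation embryos. The cells given hairpins carried the XistΔA deletion on one X chromosome and the PGK strain's X as the other, according to the study. A short hairpin RNA was delivered by retrovirus with puromycin selection, 5-aza was added on day 3 for 24 h where it was used, and poly(A) RNA was collected on day 7. There were 4 groups of 3 libraries, for a control or a Setdb1 hairpin, each without and with the drug. In every group libraries A and B had one hairpin (non-silencing, or shSetdb1.4) and library 1 had another (against luciferase, or shSetdb1.6). One further 5-aza library had no named hairpin and entered no test. Its library name starts with PGK, and the study describes a PGK sample that lacked the reference allele at the variants used. Its strain and X chromosomes may therefore differ from those of the hairpin libraries. According to the study, Setdb1 hairpins went into cells heterozygous for a gene-trap allele of Setdb1 and the non-silencing hairpin into wild-type cells, and the genotype of the luciferase cells was not given. The hairpin, the genotype and the embryo of origin therefore cannot be told apart in what follows. The labels do not say which libraries came from separate cultures, so p-values measure the spread between these libraries, which may be technical.

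Hox genes encode homeodomain transcription factors that give cells along the head-to-tail axis and along the limbs their positional identity. In each cluster all genes are read in the same direction, and the order of genes along the chromosome follows the order in which they are expressed in the body, with low numbers towards the head and high numbers towards the tail and the tips of the limbs. Fibroblasts keep a Hox pattern of their site of origin in culture, and the silent genes of a cluster are a classic target of Polycomb group proteins.

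Levels are given as RPM, reads per 1 M reads, and 1 RPM was 41.9 to 58.8 reads in the hairpin libraries, which held 36.4 to 51.3 M reads in genes. The targeted gene was lower as labelled, with Setdb1 at 46.1, 46.3 and 46.4 RPM with control hairpins and 15.4, 14.7 and 12.1 RPM with Setdb1 hairpins, and at 42.7 to 43.9 and 10.5 to 14.5 RPM with 5-aza. Fibroblast markers (14 genes) summed to 19400 to 24400 RPM with control hairpins and 21500 to 27700 with Setdb1 hairpins, and to 17500 to 26700 and 16500 to 21600 with 5-aza, where 2 of the 14 were lower with Setdb1 hairpins and their median log2 fold change was -0.32. Markers of other cells were lower but moved with the groups. Neural and neural crest markers (11 genes) summed to 333 to 382 RPM with control hairpins and 427 to 480 with Setdb1 hairpins. With 5-aza the sums were 400 to 446 and 477 to 550. Nes had 11718 to 24632 reads per hairpin library and Tubb3 1905 to 3352, while Foxd3 had 0 in every one and Sox10 at most 2. Muscle and cartilage markers (9 genes) summed to 92.1 to 93.3 and 112 to 148 RPM, and to 102 to 115 and 127 to 156 with 5-aza. Col2a1 had 1631 to 4203 reads per hairpin library and Sox9 1479 to 2808, while Myf5 had 0 in every one and Pax7 and Matn1 0 or 1. Epithelial markers (7 genes) summed to 25.8 to 29.3 and 31.4 to 46.5 RPM, and to 38.8 to 51.5 and 61.6 to 74.7 with 5-aza. Krt19 had 1030 to 2799 reads per hairpin library, while Cdh1 had 4 or fewer and Epcam 7 or fewer. Endothelial markers (6 genes) summed to 7.05 to 8.2 and 6.21 to 6.68 RPM, and to 4.22 to 6.28 and 4.44 to 5.97 with 5-aza. Macrophage and blood markers (8 genes) summed to 10.1 to 11.2 RPM without 5-aza and 12.9 to 15.3 with it, with Hbb-b1 at 0 reads. Without 5-aza, 3 of 6 neural, 3 of 4 muscle and cartilage and 2 of 3 epithelial markers tested were higher with Setdb1 hairpins (background 9.007%). None of these was lower, 1 of 14 fibroblast markers was lower, and 0 of 3 endothelial and 0 of 3 macrophage and blood markers changed. The part of these marker sums in the Hox results was not tested, and in bulk RNA a change in the mix of cells and a change within cells cannot be told apart.

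The promoters of 5 members on which the comparisons turn are shown first, since 5-aza blocks the maintenance of methylation at C followed by G. Each such CG pair, read along the strand shown, is in capitals. They run from 250 bases before to 50 bases after the RefSeq start, 5′ to 3′ on the gene's own strand, in build GRCm38.p6. The Hoxd13 window ends before the start of that gene in the expression table (74668310). Its end lay in no annotated Hoxd13 transcript, unlike the ends of the other windows shown. Hoxd13, Hoxd12 and Hoxa13 were higher with Setdb1 hairpins, Hoxd3 was lower, and Hoxb8 was lower with 5-aza.
Hoxd13 promoter, chr2:74667975-74668274, plus strand: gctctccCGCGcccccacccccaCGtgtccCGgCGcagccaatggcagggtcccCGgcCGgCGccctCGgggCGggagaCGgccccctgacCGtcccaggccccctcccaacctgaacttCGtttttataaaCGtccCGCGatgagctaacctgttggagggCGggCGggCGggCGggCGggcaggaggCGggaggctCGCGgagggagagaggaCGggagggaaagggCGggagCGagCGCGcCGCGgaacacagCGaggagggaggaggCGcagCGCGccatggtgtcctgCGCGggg
Hoxd12 promoter, chr2:74674763-74675062, plus strand: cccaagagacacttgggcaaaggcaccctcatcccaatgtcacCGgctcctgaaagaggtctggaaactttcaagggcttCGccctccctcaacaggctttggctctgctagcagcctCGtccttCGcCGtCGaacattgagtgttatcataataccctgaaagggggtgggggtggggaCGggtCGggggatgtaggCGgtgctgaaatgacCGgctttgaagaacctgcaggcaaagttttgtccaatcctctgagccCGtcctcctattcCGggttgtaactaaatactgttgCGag
Hoxa13 promoter, chr6:52260831-52261130, minus strand: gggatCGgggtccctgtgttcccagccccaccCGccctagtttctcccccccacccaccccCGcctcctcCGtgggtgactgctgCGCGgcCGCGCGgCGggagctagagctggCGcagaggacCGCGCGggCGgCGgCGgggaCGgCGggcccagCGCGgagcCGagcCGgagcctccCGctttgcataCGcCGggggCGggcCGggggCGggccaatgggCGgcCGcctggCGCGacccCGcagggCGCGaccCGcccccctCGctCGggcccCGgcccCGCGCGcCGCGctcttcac
Hoxd3 promoter, chr2:74711743-74712042, plus strand: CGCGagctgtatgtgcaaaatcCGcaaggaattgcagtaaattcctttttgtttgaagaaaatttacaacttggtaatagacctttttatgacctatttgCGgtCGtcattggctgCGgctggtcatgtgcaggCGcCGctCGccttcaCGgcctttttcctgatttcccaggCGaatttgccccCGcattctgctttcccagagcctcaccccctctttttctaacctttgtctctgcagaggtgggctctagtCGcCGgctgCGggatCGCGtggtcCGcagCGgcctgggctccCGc
Hoxb8 promoter, chr11:96281655-96281954, plus strand: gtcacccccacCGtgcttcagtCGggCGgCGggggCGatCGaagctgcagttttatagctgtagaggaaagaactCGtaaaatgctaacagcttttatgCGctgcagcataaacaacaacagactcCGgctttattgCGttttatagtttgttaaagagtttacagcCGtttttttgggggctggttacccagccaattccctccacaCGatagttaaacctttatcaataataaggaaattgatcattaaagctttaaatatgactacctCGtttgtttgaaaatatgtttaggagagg
These windows hold 37, 13, 45, 20 and 13 CG pairs. RefSeq promoters were at hand for 22 of the 39 members, as 24 windows, with a median of 14.5 CG pairs and a range from 4 (Hoxd4, Hoxa9 and one of the Hoxd11 starts) to 45, against a median of 7 over all 32851 promoter windows. At least 10 CG pairs were found in 17 of the 24 (70.8%), against 43.5% of all windows. The letters TGATNNAT, an 8-letter form of the joint site of Hox proteins and their Pbx partners, searched on both strands, were in 4 of the 24 (16.7%) and in 8.85% of all windows. These are counts of letters and say nothing of methylation or binding, which were not measured here.

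**Figure D1:**
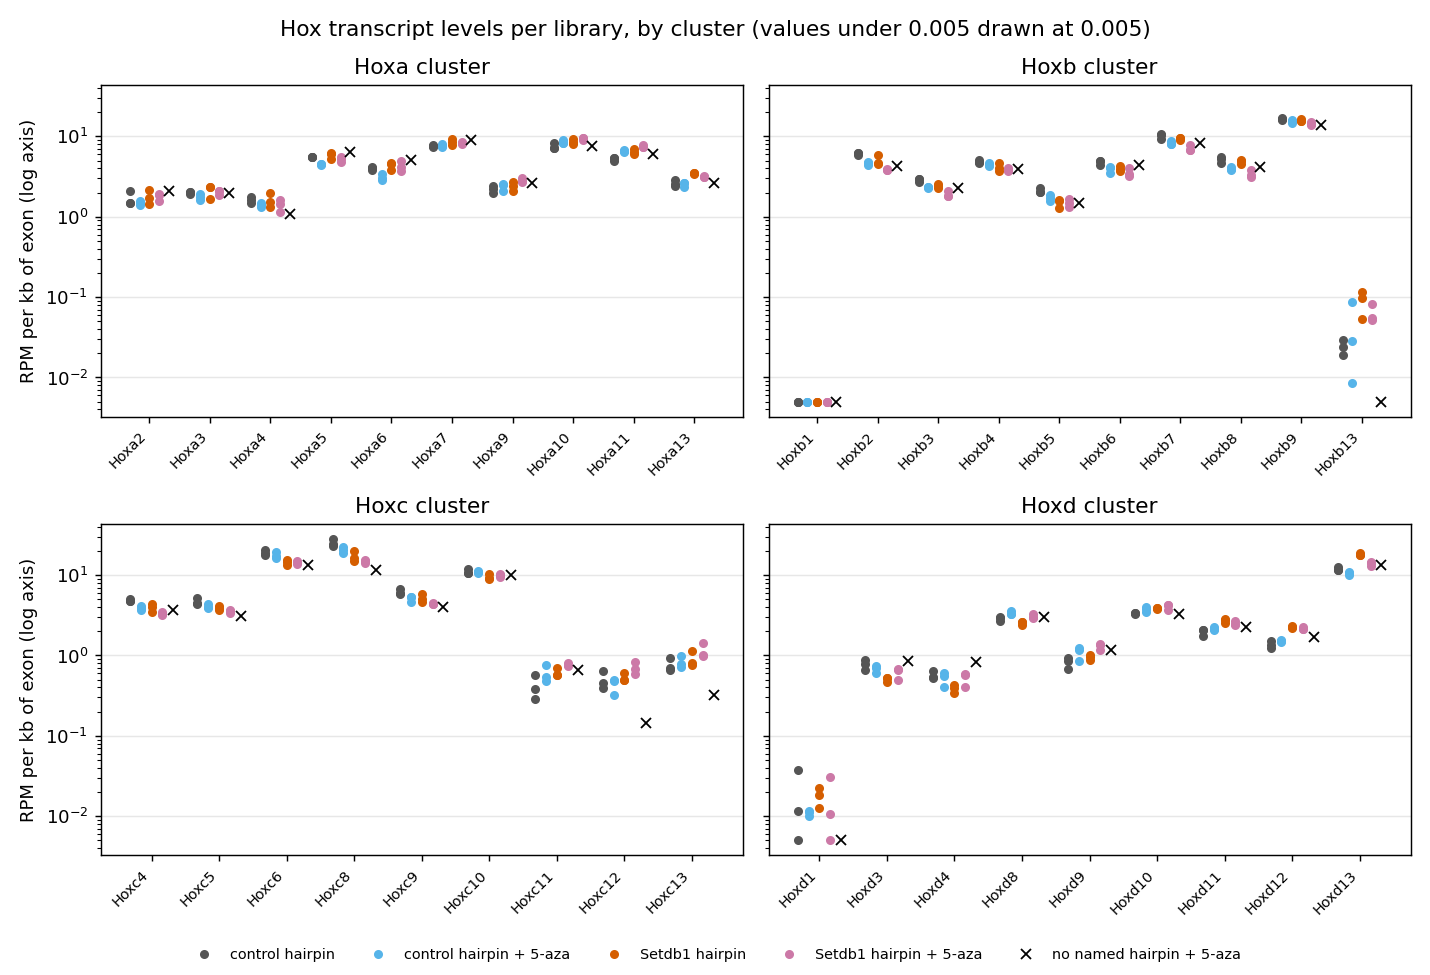
RPM per kilobase of exon on a log axis for the Hox genes reported here, 1 panel per cluster and genes in order of their number. Each dot is a library, coloured by group, and crosses are the library with no named hairpin. The control hairpin means run from 25.28 (Hoxc8) to 0.4171 (Hoxc11), with Hoxb13 (0.02421), Hoxd1 (0.01652) and Hoxb1 (0) below them.

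MEFs expressed a broad Hox set. Per kilobase of exon, the highest level with control hairpins was that of Hoxc8 (25.28 ± 2.74 RPM per kb, SD, n = 3), a central gene of the trunk, followed by Hoxc6 (19.11 ± 1.29), Hoxb9 (16.47 ± 0.377) and Hoxd13 (11.79 ± 0.615), the last a gene of the digits and the genital tubercle. The ranges of the 3 libraries did not overlap between these 4 genes except that Hoxd13 overlapped the next gene, Hoxc10 (10.99 ± 0.723), which in turn overlapped Hoxb7 (10.05 ± 0.803). Hoxa7 (7.577 ± 0.246) and Hoxa10 (7.516 ± 0.646) came next and overlapped each other. Summed per cluster, Hoxc was at 72.7 ± 6.23 RPM per kb, Hoxb at 52.3 ± 0.949, Hoxa at 44.0 ± 2.09 and Hoxd at 23.5 ± 0.88.

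At the low end, Hoxb1, a hindbrain gene, had 0 reads in all 13 libraries, which allows up to 0.072 RPM in the shallowest hairpin library. Hoxd1 had 0 to 4 reads, and Hoxb13, a gene of the tail and prostate, had 0 to 12. Hoxc12 had 3 to 44 reads, at 0.335 to 0.844 RPM in the hairpin libraries. These 4 genes did not reach 1 RPM in 3 libraries and were not tested, which leaves 35 members in the tests among 13134 genes. The limit covers counting error only.

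Several rows share exon sequence with a neighbour or with an RNA from the other strand. The share of exon bases is 62.8% for Hoxd3 and 52.3% for Hoxd4, which overlap each other, 52.9% for Hoxb3 and 27.3% for Hoxb2 (with Hoxb3os), 35.0% for Hoxa11 (with Hoxa11os), 27.1% for Hoxa3 and 20.4% for Hoxa7. Whether strand was used in counting is not given in the sources used here, so the values of these genes are uncertain.

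The first comparison asked what changed with Setdb1 hairpins in cells without 5-aza. Posterior genes of Hoxd (3 of 5 tested) and Hoxa (2 of 4) rose. The genes that fell were the central genes of Hoxc (4 of 4), anterior (2 of 2) and central (1 of 5) genes of Hoxb, and the anterior gene of Hoxd (1 of 1), while 0 of 2 central Hoxd genes passed. Of the 35 members tested, 13 changed (limma, adjusted p under 0.05, Benjamini-Hochberg over 13134 genes), which is 37.1%, against 12.4% of all genes tested. There were 5 higher (background 9.007%) and 8 lower (background 3.4%). All 5 that rose are posterior, and none of the 8 that fell is. With libraries centred on their medians the split was 5 higher and 11 lower, and with quantile normalization 5 and 12. Shares over all genes under these scalings are not given here, so these splits do not set Hox genes apart from other genes. The same holds for the counts below with 1 library left out. The median log2 fold change was -0.05 over the 35 members and 0.03 over all genes.

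Hoxd13 (ENSMUSG00000001819, chromosome 2, 74668310 to 74671599 in GRCm38, as for all genes here) was at 31.04, 28.44 and 28.35 RPM with control hairpins in libraries A, B and 1, and at 44.55, 44.36 and 46.22 RPM with Setdb1 hairpins. The groups lie far apart compared with their spread, at 0.62 on the log2 scale (SE 0.06, adjusted p 2.85e-05). Its neighbour Hoxd12 (chromosome 2, 74674929 to 74677706), also a gene of the distal limb, was at 3.888, 3.409 and 3.167 RPM and then at 5.639, 5.847 and 5.653 (log2 fold change 0.72, SE 0.08, adjusted p 0.000127). Hoxd11, which patterns the forearm and lower leg, went from 8.855, 7.314 and 8.629 to 10.65, 11.71 and 11.93 RPM (0.47, SE 0.08, adjusted p 0.00307). In Hoxa, the paralogue Hoxa13 (chromosome 6, 52257694 to 52260880) went from 6.363, 5.998 and 7.12 to 8.501, 8.634 and 8.539 RPM (0.40, SE 0.07, adjusted p 0.0036). Hoxa11 (chromosome 6, 52242108 to 52246214) went from 12.2, 11.22 and 12.43 to 13.99, 15.84 and 14.67 RPM (0.31, SE 0.06, adjusted p 0.00506). In each of these 5 genes the lowest Setdb1 hairpin library lay above the highest control.

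The 4 central genes of Hoxc fell. Hoxc8 (ENSMUSG00000001657, chromosome 15, 102990622 to 102994267), the highest Hox transcript per length in these cells, was at 69.44, 65.11 and 80.19 RPM with control hairpins and at 42.86, 56.02 and 46.03 RPM with Setdb1 hairpins (log2 fold change -0.57, SE 0.10, adjusted p 0.00365). Hoxc6 (chromosome 15, 102998257 to 103011881), a thoracic gene, was at 45.19, 43.41 and 49.43 and then at 32.32, 36.59 and 34.7 RPM (-0.41, SE 0.07, adjusted p 0.00307). Hoxc4 (-0.30, SE 0.08, adjusted p 0.0293) and Hoxc5 (-0.26, SE 0.08, adjusted p 0.0448) fell less. Outside Hoxc, the anterior gene Hoxd3 fell from 3.27, 2.783 and 3.634 to 1.978, 2.226 and 2.218 RPM (-0.59, SE 0.14, adjusted p 0.0188). In Hoxb, Hoxb5 went from 5.638, 5.631 and 6.397 to 3.556, 4.436 and 4.412 RPM (-0.51, SE 0.11, adjusted p 0.0126), and Hoxb2 (-0.29, SE 0.08, adjusted p 0.0412) and Hoxb3 (-0.24, SE 0.07, adjusted p 0.0431), both hindbrain genes, fell less.

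Along the clusters the fold change was higher for higher gene numbers. Over the 35 members, Spearman's rho between the number and the log2 fold change was 0.70, and it was 0.95 over the 8 members of Hoxd, 0.93 over the 11 of Hoxa, 0.74 over the 8 of Hoxb and 0.69 over the 8 of Hoxc. These are descriptions across genes of the same libraries, which are not independent. The 8 tested Hoxb members were all below 0 (median -0.23), whereas 9 of the 11 Hoxa members were above 0 (median 0.11). The 14 posterior members had a median of 0.24, the 15 central ones -0.22 and the 6 anterior ones -0.27. For 20 of the 35 members (57.1%, background 34.4%) the ranges of the groups were apart, 6 higher (background 24.0%) and 14 lower (background 10.4%).

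**Figure D2:**
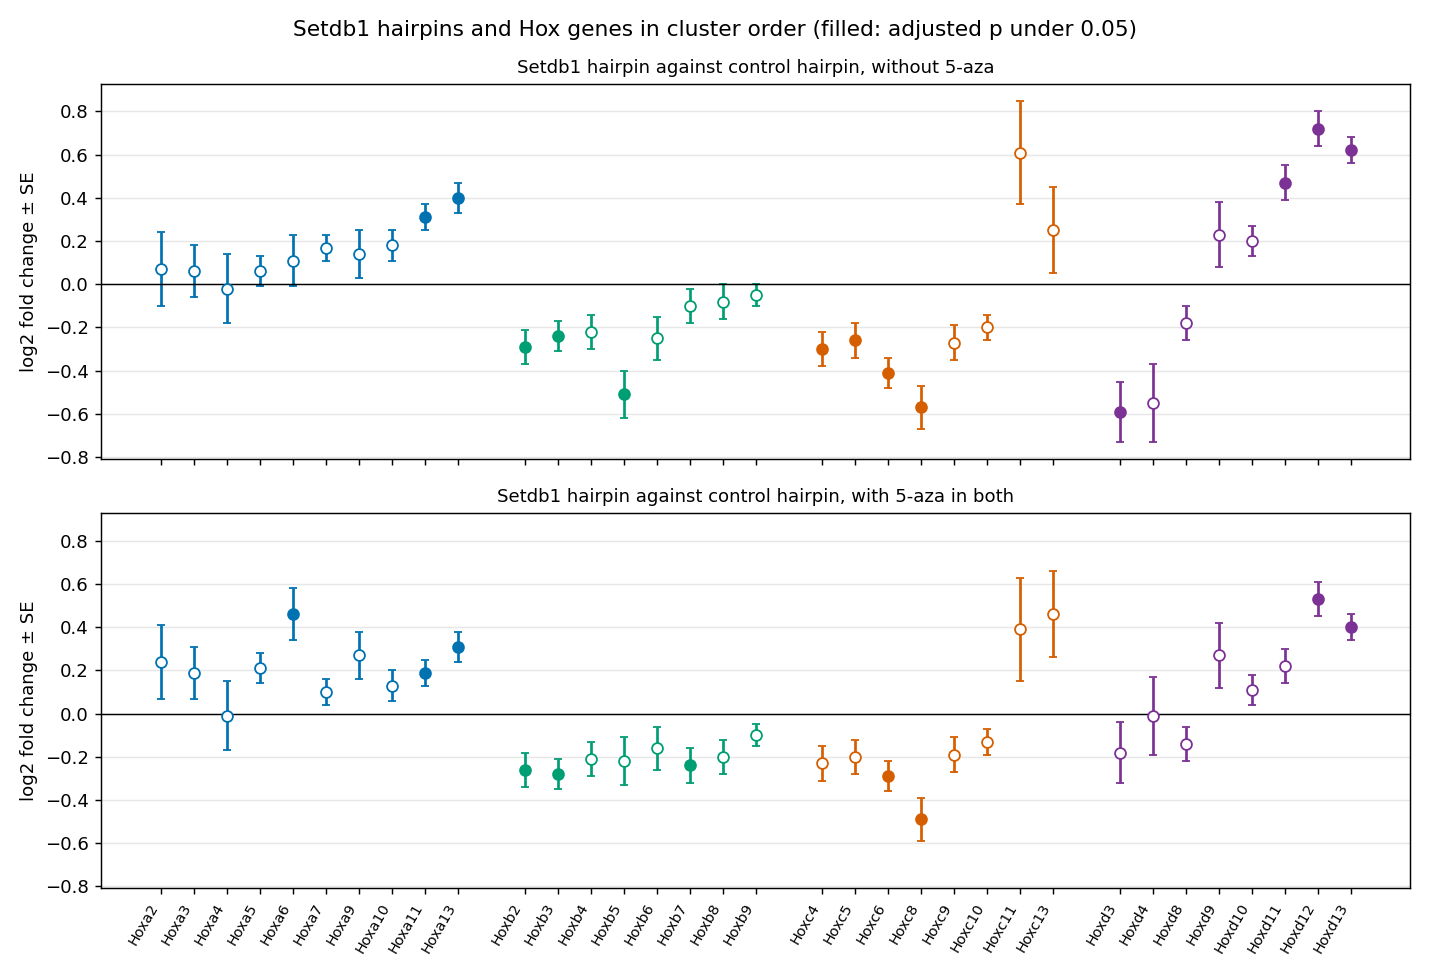
Log2 fold change ± SE of the tested Hox genes reported here for Setdb1 hairpins against control hairpins, without 5-aza (top) and with 5-aza in both groups (bottom), in cluster order and coloured by cluster. Filled points passed the test (13 above, 10 below), and in the top panel the Hoxd points run from -0.59 for Hoxd3 to 0.72 for Hoxd12.

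Among the 22 members that did not pass, log2 fold changes ran from -0.55 to 0.61, and Hoxc9 (-0.27, SE 0.08, adjusted p 0.0558), Hoxc10 (-0.20, SE 0.06, adjusted p 0.0584) and Hoxd4 (-0.55, SE 0.18, adjusted p 0.0692) came nearest. With 1 of the 6 libraries left out, 7 calls (Hoxd13, Hoxd12, Hoxd11, Hoxa13, Hoxa11, Hoxc6 and Hoxc8) were made each time and the count ran from 8 (without control A, or without Setdb1 hairpin library 1) to 16 (without Setdb1 hairpin B). Hoxb5 was lost without control 1 (adjusted p 0.0574), and Hoxd3, Hoxc4, Hoxb2, Hoxb3 and Hoxc5 were each lost without 4 or 5 of the libraries, among them control A, control 1, and Setdb1 hairpin A and 1 in each case (highest adjusted p 0.0826, 0.112, 0.161, 0.145 and 0.168).

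The same question was asked with 5-aza in both groups. Here 10 members changed (28.6%, background 19.9%), 5 higher (background 14.5%) and 5 lower (background 5.37%). Hoxd13 was at 24.61, 27.12 and 26.7 RPM with control hairpins and at 32.19, 35.2 and 35.94 RPM with Setdb1 hairpins (log2 fold change 0.40, SE 0.06, adjusted p 0.000707). Hoxd12 was at 3.897, 3.723 and 3.835 and then at 5.361, 5.674 and 5.465 RPM (0.53, SE 0.08, adjusted p 0.000875). Hoxa13 (0.31, SE 0.07, adjusted p 0.0101), Hoxa11 (0.19, SE 0.06, adjusted p 0.0417) and the central gene Hoxa6 (0.46, SE 0.12, adjusted p 0.0168) also rose. Hoxc8 went from 53.83, 58.79 and 64.14 to 42.47, 43.18 and 40.04 RPM (-0.49, SE 0.10, adjusted p 0.00642), and Hoxc6 (-0.29, SE 0.07, adjusted p 0.0145), Hoxb3 (-0.28, SE 0.07, adjusted p 0.0163), Hoxb2 (-0.26, SE 0.08, adjusted p 0.0445) and Hoxb7 (-0.24, SE 0.08, adjusted p 0.0447) fell.

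The comparisons without and with 5-aza have no library in common, and 8 members were called in both, in the same direction in each case: Hoxd13, Hoxd12, Hoxa13 and Hoxa11 higher and Hoxc8, Hoxc6, Hoxb3 and Hoxb2 lower. That is 61.5% of the 13 and 80% of the 10, while over all genes 1145 were shared, 70.2% of 1630 and 43.9% of 2609. These comparisons are still not independent of each other. Setdb1 hairpin libraries of the same name varied together without and with 5-aza (r 0.634, 0.413 and 0.472). Both also compare the same hairpins, from which genotype and embryo cannot be told apart. With 5-aza the medians were 0.24 for posterior, -0.20 for central and -0.09 for anterior members, and rho with the gene number was 0.52 over the 35 members, 0.31 in Hoxa, 0.76 in Hoxb, 0.79 in Hoxc and 0.88 in Hoxd. For 19 members (54.3%, background 34.7%) the groups' ranges were apart, 9 higher (background 24.6%) and 10 lower (background 10.0%). Hoxa5 (0.21, SE 0.07, adjusted p 0.0587), Hoxc4 (-0.23, SE 0.08, adjusted p 0.06) and Hoxb4 (-0.21, SE 0.08, adjusted p 0.074) came nearest among those not called. The split of 5 higher and 5 lower moved with the scaling, to 4 higher and 10 lower with libraries centred on their medians and 4 and 11 with quantile normalization, where Hoxa11 was no longer called (adjusted p 0.125 and 0.141). Shares over all genes under these scalings are not given here. Hoxd13, Hoxd12, Hoxa13 and Hoxc8 were called with any 1 library left out, and the count then ran from 5 (without control + 5-aza A, or without Setdb1 hairpin + 5-aza 1) to 12 (without Setdb1 hairpin + 5-aza A). It was 6 without control + 5-aza B and 6 without Setdb1 hairpin + 5-aza B. Of the other 6, Hoxc6 was lost without Setdb1 hairpin + 5-aza 1 alone (adjusted p 0.0689), and Hoxa6, Hoxb3, Hoxa11, Hoxb2 and Hoxb7 without 2 to 5 libraries (highest adjusted p 0.0701, 0.0736, 0.142, 0.142 and 0.168).

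**Figure D3:**
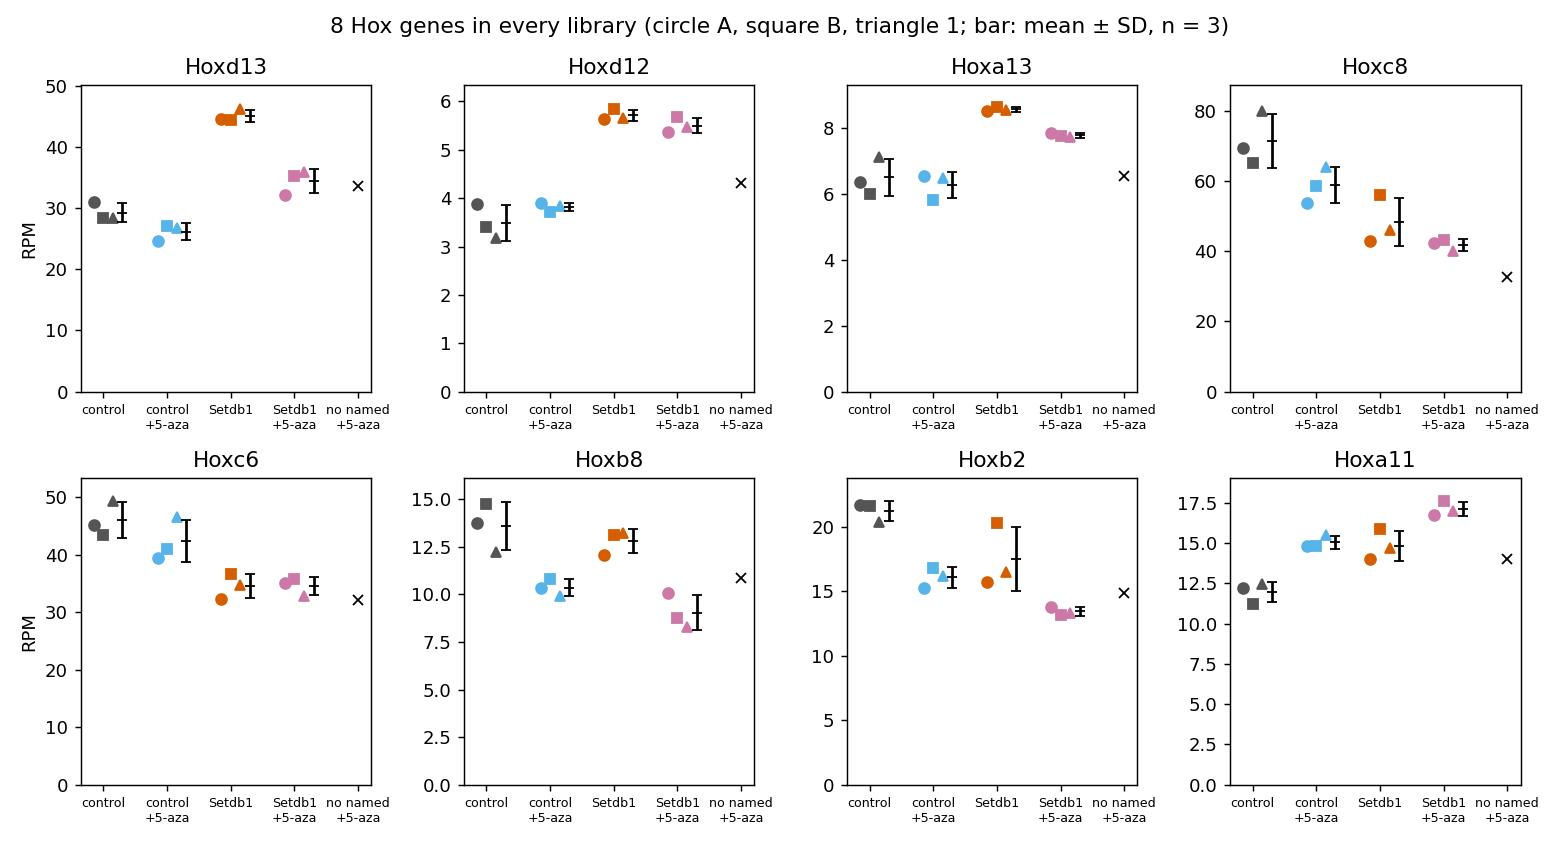
RPM of 8 Hox genes in every library, with circles for A, squares for B and triangles for 1, the mean ± SD of each group (n = 3) beside them, and a cross for the library with no named hairpin. Hoxd13, Hoxd12 and Hoxa13 are higher in both Setdb1 hairpin groups, Hoxc8 and Hoxc6 are lower there, and Hoxb8 and Hoxb2 are lower in the 5-aza groups than in the untreated group with the same hairpin.

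The next comparison asked what changed with 5-aza in control hairpin cells. It shares its 3 untreated libraries with the first comparison, so the results of the 2 are not independent. Of the 8 Hoxb genes tested 4 fell, and Hoxa11 and Hoxd8 rose. Of the 35 members, 10 changed (28.6%, background 18.8%), 8 lower (background 5.34%) and 2 higher (background 13.47%). Every one of the 8 tested Hoxb members had its 3 treated libraries below its 3 untreated ones. Over the 35 members the ranges were apart for 19 (54.3%, background 37.6%), 15 lower (background 12.7%) and 4 higher (background 24.9%). The median log2 fold change was -0.29 in Hoxb, -0.15 in Hoxc, -0.07 in Hoxa and 0.15 in Hoxd.

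In Hoxb, Hoxb2 (ENSMUSG00000075588, chromosome 11, 96351632 to 96355689), which patterns the hindbrain and the nerves of the face, was at 21.7, 21.64 and 20.36 RPM without 5-aza and at 15.24, 16.83 and 16.21 RPM with it (log2 fold change -0.40, SE 0.08, adjusted p 0.00648). Hoxb8 (chromosome 11, 96281905 to 96285325) went from 13.77, 14.76 and 12.24 to 10.36, 10.82 and 9.909 RPM (-0.39, SE 0.08, adjusted p 0.00889). Hoxb3 went from 11.58, 12.38 and 12.65 to 9.861, 9.55 and 9.826 RPM (-0.32, SE 0.07, adjusted p 0.00842). Hoxb7 fell by 0.27 on the log2 scale (SE 0.08, adjusted p 0.0269). The treated libraries of these 4 genes were all below the untreated ones. In Hoxa, Hoxa5, a gene of lung and neck, went from 10.37, 10.27 and 10.46 to 8.612, 8.489 and 8.209 RPM (-0.30, SE 0.07, adjusted p 0.0144), and Hoxa6 (-0.37, SE 0.12, adjusted p 0.0427) fell as well. In Hoxc, Hoxc4 (-0.31, SE 0.08, adjusted p 0.0188) and Hoxc9 (-0.28, SE 0.08, adjusted p 0.0373) fell. Hoxa11 rose from 12.2, 11.22 and 12.43 to 14.81, 14.82 and 15.51 RPM (0.33, SE 0.06, adjusted p 0.00253), and Hoxd8 from 7.264, 8.371 and 7.991 to 9.926, 9.047 and 8.935 RPM (0.24, SE 0.08, adjusted p 0.0433).

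Near the threshold, Hoxd13 (-0.16, SE 0.06, adjusted p 0.0614), Hoxa10 (0.19, SE 0.07, adjusted p 0.0687) and Hoxc8 (-0.28, SE 0.10, adjusted p 0.073) were not called. With the libraries centred on their medians the split was 1 higher and 13 lower, and 1 and 12 with quantile normalization, and Hoxd8 was not called in either (adjusted p 0.0987 and 0.165). Shares over all genes under these scalings are not given here. Hoxa11, Hoxb2, Hoxb3, Hoxb8 and Hoxa5 were called with any 1 library left out, when the count ran from 5 (without control + 5-aza A) to 8, with 6 without control A and 6 without control B. Hoxc4 was lost without control 1 and without control + 5-aza A (highest adjusted p 0.0559), Hoxb7 and Hoxa6 without 4 and 5 of the 6 libraries (0.115 and 0.14), and Hoxc9 and Hoxd8 without any 1 of the 6 (0.112 and 0.16).

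In Setdb1 hairpin cells, whose untreated libraries also serve in the first comparison, 9 members changed with 5-aza (25.7%, background 28.9%), 7 lower (background 7.51%) and 2 higher (background 21.36%). The count in either direction together was thus near the background. Hoxb8 went from 12.06, 13.12 and 13.24 to 10.06, 8.74 and 8.304 RPM (log2 change -0.51, SE 0.08, adjusted p 0.00176). Hoxb7 went from 13.87, 14.67 and 14.86 to 11.96, 10.33 and 10.32 RPM (-0.41, SE 0.08, adjusted p 0.0028). Neither gene's groups overlap. Hoxb3 (-0.36, SE 0.07, adjusted p 0.00355), Hoxb2 (-0.37, SE 0.08, adjusted p 0.00675) and Hoxb9 (-0.14, SE 0.05, adjusted p 0.0349) also fell, which makes 5 of the 8 tested Hoxb members. Hoxd13 fell from 44.55, 44.36 and 46.22 to 32.19, 35.2 and 35.94 RPM (-0.39, SE 0.06, adjusted p 0.000787), and the treated libraries still lay above the control hairpin libraries without 5-aza. Hoxc4 fell (-0.24, SE 0.08, adjusted p 0.0401), and Hoxd8 (0.28, SE 0.08, adjusted p 0.0163) and Hoxa11 (0.21, SE 0.06, adjusted p 0.0199) rose. Ranges were apart for 13 members (37.1%, background 43.4%), 8 lower (background 12.2%) and 5 higher (background 31.2%).

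Untreated and treated Setdb1 hairpin libraries of the same name varied together, and with that pairing as a block 17 members were called, 7 higher and 10 lower (background 40.2% of all genes). They include the 9 called without the block. Among the others were Hoxd9 (0.44, adjusted p 0.0116), Hoxc13 (0.33, adjusted p 0.0185), Hoxc9 (-0.20, adjusted p 0.0284), Hoxa9 (0.24, adjusted p 0.0305), Hoxc8 (-0.20, adjusted p 0.0311), Hoxa10 (0.14, adjusted p 0.0469) and Hoxa5 (-0.15, adjusted p 0.0482). Without the block Hoxd9 (SE 0.15, adjusted p 0.0514), Hoxc9 (SE 0.08, adjusted p 0.0882) and Hoxa9 (SE 0.11, adjusted p 0.104) came nearest to a call. With median centring the split was 0 higher and 10 lower, with quantile normalization 0 and 11, and Hoxd8 (adjusted p 0.0507 and 0.089) and Hoxa11 (0.0557 and 0.0838) were not called. Shares over all genes under these scalings are not given here. Hoxd13, Hoxb8, Hoxb7, Hoxb3 and Hoxb2 were called with any 1 library left out, with counts from 5 (without Setdb1 hairpin + 5-aza B) to 9. Hoxd8 was lost without Setdb1 hairpin B and without Setdb1 hairpin + 5-aza B (highest adjusted p 0.0724), and Hoxa11, Hoxc4 and Hoxb9 without 3, 4 and 5 of the 6 libraries (0.0858, 0.139 and 0.139).

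**Figure D4:**
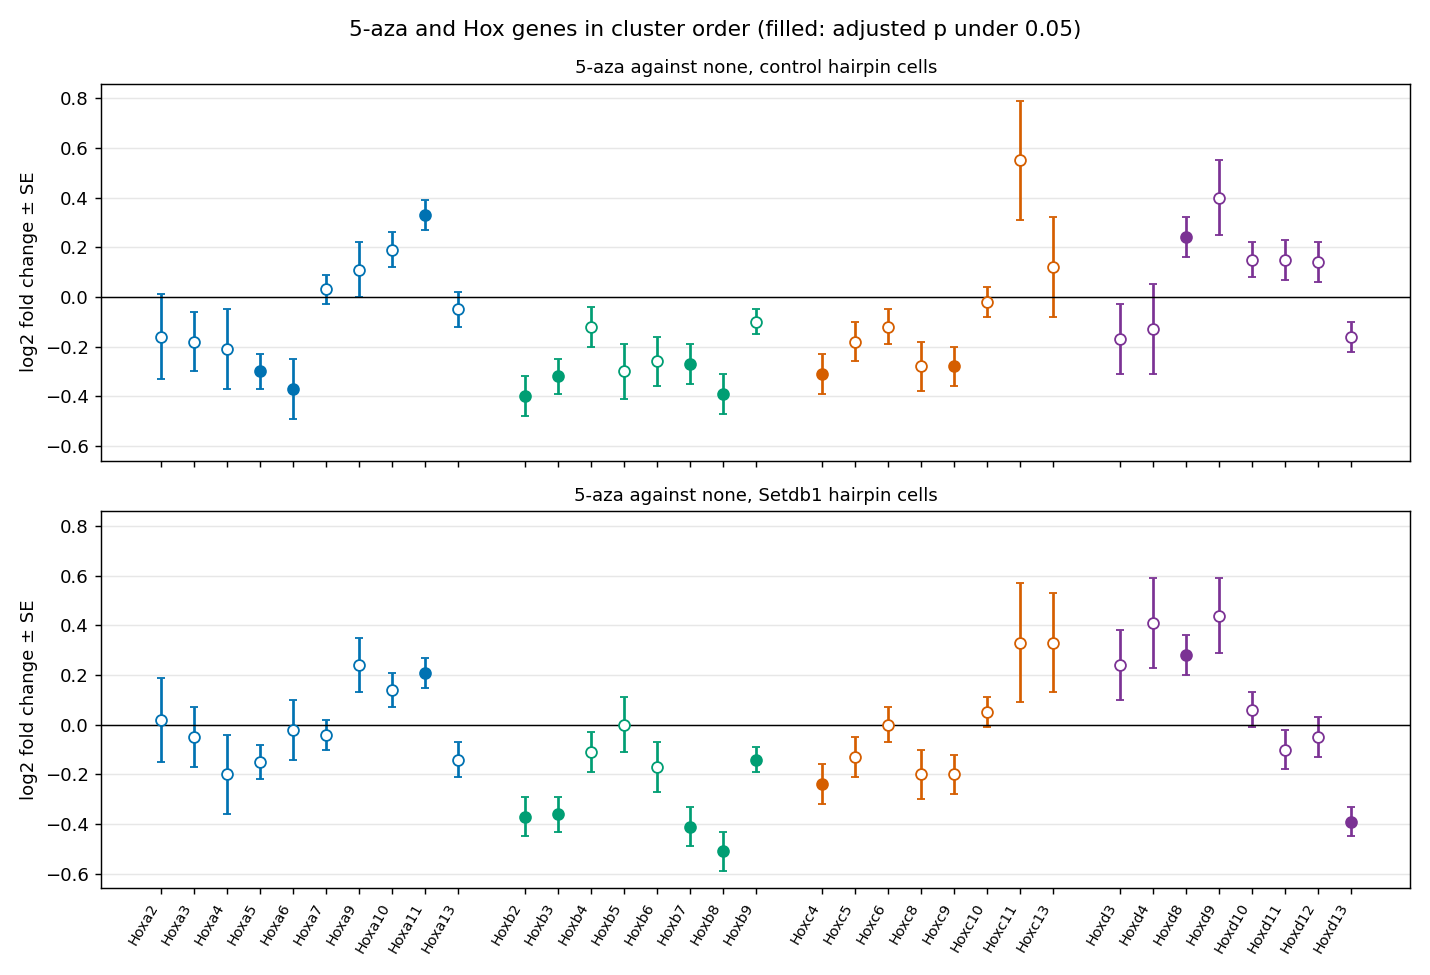
Log2 fold change ± SE of the tested Hox genes reported here for 5-aza against none in control hairpin cells (top) and in Setdb1 hairpin cells (bottom), in cluster order and coloured by cluster. Filled points passed the test (10 above, 9 below). Every Hoxb point lies below 0 in the top panel, and Hoxd8 and Hoxa11 are the filled points above 0 in both.

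The comparisons of 5-aza in control and in Setdb1 hairpin cells have no library in common. Called in both, in the same direction, were 7 members: Hoxb2, Hoxb3, Hoxb7, Hoxb8 and Hoxc4 lower and Hoxa11 and Hoxd8 higher. They are 70% of the 10 and 77.8% of the 9, while over all genes the shared 1721 were 69.6% of 2471 and 45.4% of 3792.

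Whether the effect of the hairpin differed with 5-aza was tested as an interaction. No member passed (0 of 35, limma, background 0.388%), with 2 members at an unadjusted p under 0.05 (Hoxd13 and Hoxd11) and a lowest adjusted p of 0.794. No member passed with limma's voom weights on recovered reads either, nor with the culture block (background 1.29%). The interaction, the log2 fold change with Setdb1 hairpins in the presence of 5-aza minus that in its absence, was above 0 for 22 of the 35 members. It was -0.23 (SE 0.08) for Hoxd13, -0.25 (SE 0.11) for Hoxd11 and 0.35 (SE 0.16) for Hoxa6, which had the lowest unadjusted p-values. A difference between the conditions was thus not shown for any member, nor was its absence.

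Summed over a cluster per kilobase of exon, Hoxc went from 70.3, 68.0 and 79.8 to 51.1, 61.9 and 54.8 RPM per kb with Setdb1 hairpins (log2 difference -0.38), and Hoxd from 24.5, 22.7 and 23.4 to 30.8, 31.3 and 32.1 (0.42). With 5-aza in control cells Hoxb went from 52.1, 53.3 and 51.5 to 43.1, 45.8 and 45.2 (-0.23), and in Setdb1 hairpin cells from 44.8, 49.6 and 47.4 to 40.9, 39.2 and 38.5 (-0.26). In these 4 comparisons the groups did not overlap, and the same held for others. Hoxb was lower with Setdb1 hairpins without 5-aza (means 47.3 against 52.3) and with it (39.6 against 44.7). With 5-aza in both groups Hoxc was lower (52.9 against 64.2), and Hoxa (49.7 against 43.9) and Hoxd (28.1 against 23.7) were higher. Hoxd was lower with 5-aza in Setdb1 hairpin cells (28.1 against 31.4). The exact two-sided permutation p was 0.1 for each, the smallest that 3 against 3 libraries allow, and 0.16 after adjustment over the 16 cluster comparisons, so none could pass. With Setdb1 hairpins Hoxa differed least, at 44.0 ± 2.09 and 48.3 ± 4.51 RPM per kb without 5-aza (0.13, exact p 0.2, two-sided permutation).

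Among RNAs and genes that lie within or beside the clusters, 15 of 20 listed could be tested. Without 5-aza, 3 changed with Setdb1 hairpins (background 12.4%). Evx2, the homeobox gene next to Hoxd13, rose from a mean of 0.986 to 1.54 RPM (log2 change 0.64, SE 0.17, adjusted p 0.0286). Its control mean was just under the 1 RPM that 3 libraries had to reach, so the filter may have favoured its rise. Hoxa11as, named as antisense to Hoxa11, rose from 9.18 to 11.1 RPM (0.27, SE 0.08, adjusted p 0.0447), and Hoxb3os, the opposite-strand RNA of Hoxb3, fell from 35.4 to 29.2 RPM (-0.28, SE 0.06, adjusted p 0.0109). Each thus moved in the direction of its called neighbour. Hoxb3os shares exon bases with Hoxb3 and Hoxb2, and Hoxa11 shares 35.0% of its exon bases with an opposite-strand RNA annotated as Hoxa11os. Since strand use is not given, the agreement of Hoxb3os and Hoxa11as with their neighbours may come from the same reads. With 5-aza in control cells 5 of the 15 changed (background 18.8%), with Hoxb3os lower (-0.35, SE 0.06, adjusted p 0.00218) and Hoxa11as (0.32, SE 0.08, adjusted p 0.017), Snx10 (0.41, SE 0.08, adjusted p 0.00644), Hibadh (0.19, SE 0.05, adjusted p 0.0192) and Skap2 (0.18, SE 0.06, adjusted p 0.0487) higher. The last 3 are not Hox genes but lie beyond the ends of Hoxa. In Setdb1 hairpin cells 4 changed with 5-aza (3 higher, 1 lower, background 28.9%), and with 5-aza in both groups 1 changed with Setdb1 hairpins (background 19.9%, Hoxb3os, -0.26, SE 0.06, adjusted p 0.011). Hotair, a long RNA of the Hoxc cluster, had 6 to 16 reads per hairpin library and was not tested, and Evx1 beside Hoxa13 had 0.

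Of 36 further transcription factors of limb and body position in the table, 22 could be tested and 6 rose with Setdb1 hairpins without 5-aza, with none lower (12.4% of all genes tested changed). They include Lhx2, which acts in limb outgrowth (0.42 to 1.32 RPM, log2 change 1.66, SE 0.20, adjusted p 0.000313), the hindlimb genes Pitx1 (2.87 to 4.8 RPM, 0.75, SE 0.10, adjusted p 0.000471) and Tbx4 (3.0 to 5.05 RPM, 0.76, SE 0.11, adjusted p 0.00096), and Lmx1b, of the dorsal limb (6.15 to 8.49 RPM, 0.46, SE 0.08, adjusted p 0.00215). Nr2f1 (0.35, SE 0.09, adjusted p 0.0256) rose as well. The control mean of Lhx2 was under the 1 RPM that 3 libraries had to reach. Lhx2 was thus tested through groups where it is higher, and the filter favoured its rise. With 5-aza in both groups 6 of the 22 changed (5 higher, 1 lower, background 19.9%), among them Pitx1 (0.51, SE 0.10, adjusted p 0.00393), Tbx4 (0.49, SE 0.11, adjusted p 0.00872), Six2 and Lhx2 higher and Meox2 lower (-0.95, SE 0.18, adjusted p 0.00436). With 5-aza alone in control cells 3 changed (background 18.8%), Lmx1b (0.54, SE 0.08, adjusted p 0.000662) and Pitx1 (0.33, SE 0.10, adjusted p 0.035) higher and Alx4, of the anterior limb, lower (-0.55, SE 0.08, adjusted p 0.000715). In Setdb1 hairpin cells 6 changed with 5-aza, 2 higher and 4 lower (background 28.9%), among them Alx4 (-0.51, SE 0.08, adjusted p 0.0011), Lhx2 (-0.82, SE 0.20, adjusted p 0.0117) and Meox2 (-0.65, SE 0.18, adjusted p 0.0201), all lower. The list's median log2 fold change was 0.11 with Setdb1 hairpins, against 0.03 over all genes.

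The DNA-binding partners of Hox proteins, the TALE factors, were tested as 10 genes, and 0 passed (limma) with Setdb1 hairpins without or with 5-aza, with 2 and 1 at an unadjusted p under 0.05. With 5-aza, Meis2 fell in control cells (65.1 to 54.4 RPM, log2 change -0.26, SE 0.05, adjusted p 0.00688) and in Setdb1 hairpin cells (-0.31, SE 0.05, adjusted p 0.00222), as did Pbx3 (-0.17, SE 0.05, adjusted p 0.0258, and -0.21, SE 0.05, adjusted p 0.0072), while Pbx2 rose in control cells (0.13, SE 0.04, adjusted p 0.0325). Of 30 Polycomb genes, whose products keep Hox genes silent, 3 changed with Setdb1 hairpins without 5-aza (background 12.4%): Suz12 (0.26, SE 0.05, adjusted p 0.00429) and Bmi1 (0.14, SE 0.03, adjusted p 0.0146) higher and Cbx6 lower (-0.28, SE 0.04, adjusted p 0.00171). With 5-aza in both groups 11 of the 30 changed, 9 of them higher (background 19.9%). With 5-aza against none, 5 changed in control cells (1 higher, 4 lower, among them Ezh2 at -0.41, SE 0.12, adjusted p 0.0369, and Eed at -0.29, SE 0.07, adjusted p 0.011) and 4 in Setdb1 hairpin cells (2 higher, 2 lower), against backgrounds of 18.8% and 28.9%. Of 14 Trithorax and insulator genes, which keep Hox genes active or bound their domains, 2 and 3 changed with Setdb1 hairpins without and with 5-aza, and 1 and 2 with 5-aza in control and Setdb1 hairpin cells (backgrounds 12.4%, 19.9%, 18.8% and 28.9%), among them Dpy30 (0.44, SE 0.08, adjusted p 0.00339) and Ctcf (0.18, SE 0.03, adjusted p 0.00747), higher with Setdb1 hairpins without 5-aza.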

How the data were processed

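Poly(A) RNA of 13 MEF libraries was sequenced as single-end reads. The deposited table holds 1 log2 RPM value per gene and library, which the authors made from reads of the genome build mm10. The submitters' processing notes also name CASAVA 1.4. How reads were assigned to genes, and whether strand was used, is not given in the sources used here. In all 13 libraries every value under 50 reads came out as a whole number of reads within 0.02, and a count of 0 is stored as 0.9 of a read. Implied totals were 41.9 to 58.8 M reads for the hairpin libraries and 20.4 M for the library with no named hairpin.

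The members and gene lists were chosen with earlier results of these data known. The 13134 genes that reached 1 RPM in 3 or more of the 12 hairpin libraries entered 1 limma 3.58.1 fit (R 4.3.3, empirical Bayes with a trend, two-sided), with the group as the only term, Benjamini-Hochberg adjustment over all of them and a threshold of 0.05. Fold changes are on the scale of the deposited values. Cluster sums were compared by an exact permutation test over libraries. Fold changes are given for the members that passed and for up to 3 per comparison that came nearest, and for list genes that passed. Values of 1 Hox gene and of 2 genes of the lists are not reported here, and the counts include them. Exon lengths and overlaps came from an annotation of GRCm38, the same assembly as mm10, in which Hoxd4 was matched by symbol and position. The fit was also run on simulated counts of independent libraries, with changes larger than most of those reported here. That run therefore does not check calls on smaller changes or on paired libraries.

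Libraries of the same hairpin and replicate, without and with 5-aza, were checked for pairing by correlating their deviations from the group means across genes. The rule for pairing was an r over 0.1 in every pair. In Setdb1 hairpin cells r was 0.634, 0.413 and 0.472, so the pairing was used as a block beside the main result. In control cells it was 0.149, 0.0999 and 0.586.

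Alternatives were other filters, pseudocounts of 1 and 0.1 RPM, median centring, quantile normalization, a fit of only the groups compared, replicate blocks, voom weights on the recovered reads, a single hairpin per group, and leaving out each library.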

Additional observations from a re-analysis of the deposited data

Results flagged for a closer look

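The 5-aza library with no named hairpin entered no comparison, and 2 Hox genes lay above all 6 control hairpin libraries there with their whole 95% Poisson interval. Hoxd13 was at 33.55 RPM (interval 31.1 to 36.2, counting error only), against 24.61 to 31.04 in the controls. Hoxa7 was at 25.85 RPM (23.7 to 28.2), against 21.19 to 23.42. Of all 13134 genes tested, 14.7% lay above the 6 controls in this way, and with a single library the difference has no replicate check.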

How the results depend on the processing

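For the Hox genes that passed in a comparison or came nearest to passing, 770 values under the alternatives kept their direction and their side of the threshold, 140 kept the direction but missed it, 40 newly passed it and 0 reversed. Among the other members, values near 0 changed sign with the scaling, such as Hoxa7 for 5-aza in control cells (0.03, and -0.01 with median centring) and Hoxa2 for 5-aza in Setdb1 hairpin cells (0.02, and -0.03). With 1 hairpin per group (non-silencing and shSetdb1.4, 2 libraries each) 6 Hox genes changed with Setdb1 hairpins without 5-aza and 3 with it, and 4 and 5 changed with 5-aza in control and Setdb1 hairpin cells. With 4 libraries fewer these counts rest on fewer samples. With only the 2 groups compared in the fit, 6 changed with Setdb1 hairpins in the presence of 5-aza. With 1 library left out the counts ran from 8 to 16 and from 5 to 12 for Setdb1 hairpins without and with 5-aza, and from 5 to 8 and from 5 to 9 for 5-aza in control and Setdb1 hairpin cells. Shares over all genes under these alternatives are not given here, so these counts do not set Hox genes apart from other genes. The causes were not tested.

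With the replicate block by culture, 17 members changed with 5-aza in Setdb1 hairpin cells (background 40.2%) and 17 in control cells (4 higher, 13 lower, background 29.7%). In control cells the pairing did not meet the rule in every pair. A replicate block by library name gave 16 and 14 for Setdb1 hairpins and 15 and 11 for 5-aza. Shares over all genes under this block are not given here. Between control and Setdb1 libraries of the same name (A, B and 1), r was 0.19, -0.47 and 0.0979 without 5-aza. With 5-aza it was 0.686, -0.0197 and 0.484. Some of these libraries thus varied together, but the rule was not met in every pair. The interaction gave 0 under every alternative.

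Summed levels near 0 changed sign. For 5-aza in control cells, Hoxa (log2 difference -0.0) was at 0.03 without division by exon length and ran from -0.04 to 0.03 with 1 library left out, above 0 without control 1 (0.03), control + 5-aza A (0.03) or control + 5-aza B (0.01). Hoxd (0.01) ran from -0.02 (without control B) to 0.04, with -0.01 without control + 5-aza 1. For 5-aza in Setdb1 hairpin cells, Hoxa (0.04) ran from -0.03 (without Setdb1 hairpin A) to 0.11.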

Other observations

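In the same library 7 of the 39 Hox genes lay below all 6 control hairpin libraries with their whole 95% Poisson interval (background 12.5% of genes tested), and the intervals of 30 reached the controls' range. Hoxc8 was at 32.57 RPM (interval 30.1 to 35.1), against a lowest control value of 53.83. Hoxc6 was at 32.13 RPM (29.7 to 34.7) against 39.49, Hoxc9 at 9.762 (8.45 to 11.2) against 11.39, Hoxc5 at 9.566 (8.27 to 11) against 12.12 and Hoxc13 at 0.7849 (0.449 to 1.27) against 1.608, so 5 of the 7 are in Hoxc. Hoxb9 was at 35.27 RPM (32.7 to 37.9) against 38.19. Setdb1 was at 47.0 RPM there, and macrophage and blood markers summed to 110 RPM, against 10.1 to 15.3 in the hairpin libraries. The part of these markers, and of a possible difference in strain, in these values was not tested.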
